A study of Mus musculus with 10 samples.

Results

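The proteins of the mitochondrial ribosome were examined in bone marrow of mice transplanted with hematopoietic stem cells (HSCs) of fetal liver. The genes were taken as every probe set of a mouse gene array that lists exactly 1 gene symbol starting with Mrpl or Mrps and a digit. This gave 85 probe sets of 77 genes, 48 of the large subunit (Mrpl) and 29 of the small subunit (Mrps), among 19938 genes with such a probe set. Where a gene had more than 1 probe set, as 8 genes did, the brightest on average over the 10 arrays stood for it.

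VD(−) recipients were given HSCs from embryos of vitamin D-deficient dams, and VD(+) recipients with HSCs from embryos of vitamin D-sufficient dams. All recipients, in both groups, were themselves vitamin D-sufficient and had been lethally irradiated, and the strain label is C57BL6. The study's methods state that donor cells of male and female embryos were mixed in pools. The labels give mice of 8 weeks and name bone marrow as the source, although the treatment text speaks of bone marrow macrophages, and the study's text and its legend differ on the time of collection after transplant. Each group held 5 arrays, 3 of single samples and 2 of pools, and whether the pools contain RNA of the single samples is not stated. Total RNA, 25 ng per array, was amplified before hybridisation, and the values are log2 signals. An array has no read depth, so precision is limited by how many arrays there are. The p-values weigh a difference against the spread between these samples, with pools and single samples counted alike. If the pools hold RNA of the single samples, the arrays are not independent, and the SEs and p-values could be too small. The marrow was a mixture of cells, in which fewer cells of a type and less RNA per cell cannot be told apart.

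Mitochondria translate the few proteins encoded by their own DNA, all of them core subunits of the oxidative phosphorylation complexes, on a ribosome of their own. Its RNAs come from mitochondrial DNA, whereas all of its proteins are encoded in the nucleus, made in the cytosol and imported. The small subunit decodes the mRNA and the large subunit forms the peptide bond. Some of the proteins have relatives in bacterial ribosomes and others were added in the mitochondrial lineage. Blood stem cells and their progeny differ in how far they rely on oxidative phosphorylation.

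Several members have promoter sequences with matches to motifs of factors known for nuclear genes of mitochondrial function, and 4 stretches are shown to give the sequence context of genes whose values follow. They are from RefSeq (GRCm38.p6) and lie before the annotated start of the gene, written along the gene's strand with the matched letters in capitals. The matches of Mrpl17 and Mrpl39 are to the NRF1 motif, and those of Mrpl51 and Mrps27 to the ETS motif CCGGAAG on either strand. The first bases of the Mrpl51 stretch overlap the neighbouring gene Ncapd2. The Mrpl17 stretch is chr7:105811112-105811151 (minus strand), Mrpl39 is chr16:84735345-84735384 (minus strand), Mrpl51 is chr6:125192095-125192131 (plus strand) and Mrps27 is chr13:99344723-99344759 (plus strand).
Mrpl17: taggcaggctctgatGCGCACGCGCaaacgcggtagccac
Mrpl39: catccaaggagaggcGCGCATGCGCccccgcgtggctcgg
Mrpl51: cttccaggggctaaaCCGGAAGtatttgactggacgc
Mrps27: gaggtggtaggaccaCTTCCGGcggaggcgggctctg

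The arrays as a whole were alike, with median log2 signals of 4.74 to 4.80. In VD(−) marrow, 3 arrays (replicate 1, pool 1 and pool 2) had a mean log2 signal of the Y-linked genes Uty, Eif2s3y and Kdm5d of 6.64, 6.80 and 5.31, whereas the other VD(−) arrays had 2.35 and 2.44 and the VD(+) arrays 2.25 to 2.56. Y-linked signal was thus seen in VD(−) arrays alone, and the main counts are also given without those 3 arrays. Xist was at 7.76, 8.14 and 9.83 in those 3 arrays. It was at 10.1 and 10.3 in the other VD(−) arrays and 10.2 to 10.3 in VD(+) arrays. The lack of Y-linked signal in the other arrays is at odds with the donor pools of both sexes that the methods describe. Its cause was not tested. Erythroid, neutrophil and B cell markers were all present, with mean log2 signals of 9.92 to 10.2, 11.6 to 12.0 and 7.11 to 7.57 in VD(−) marrow, against 10.04 to 10.22, 11.6 to 11.9 and 7.49 to 7.99 in VD(+) marrow.

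Most mitoribosomal genes had a slightly higher signal in VD(−) than in VD(+) marrow, and no single gene passed the test after adjustment. The log2 fold change was above 0 for 72 of 77 genes (93.5%), against 50.3% of all genes, and its median was 0.16 (interquartile range 0.11 to 0.21), against 0.0010 over all genes. At a nominal p under 0.05 (limma, two-sided), 16 genes were higher and 0 were lower in VD(−) marrow. This is 20.8% of the members, beside 4.05% of all genes higher and 2.95% lower (3.85% and 3.23% of all probe sets). None reached an adjusted p under 0.05 (limma, Benjamini-Hochberg over all probe sets), the lowest being 0.411, and 18 of all genes did (0.0903%). Among the 10692 genes with brighter probe sets, 6.51% were higher at the nominal threshold, and 17 of the 76 members among them were.

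**Figure D1:**
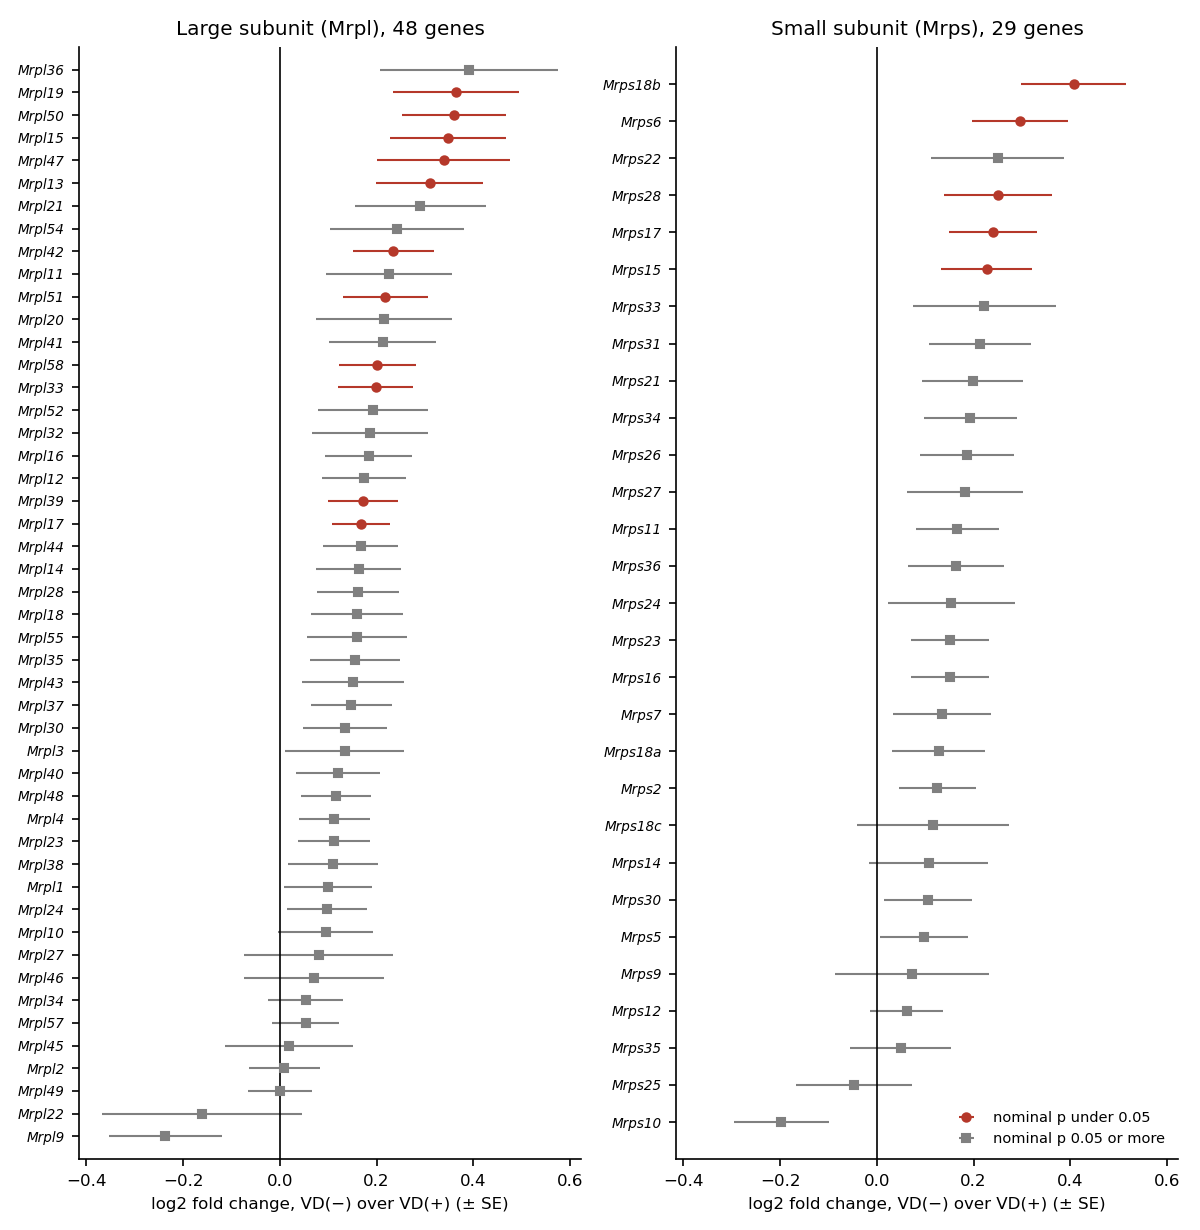
Log2 fold change of each of the 77 genes, VD(−) over VD(+), on the horizontal axis with its standard error as a bar, for the large subunit (left, 48 genes) and the small subunit (right, 29 genes). Circles mark a nominal p under 0.05 and squares the other genes, and 72 of the 77 points lie right of 0.

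The count of genes at the nominal threshold depended on single arrays. It was 9 without VD(+) replicate 1 (3.30% of all genes higher in that fit), 9 without VD(−) replicate 2 (3.73%) and 27 without VD(−) replicate 3 (4.35%), of which 15 were among the 16. Without the 3 VD(−) arrays that carried Y-linked signal, 2 of the 77 genes were called higher (Mrps18b and Mrpl14). This was beside 3.08% of all genes, a share no larger than the background. Only VD(−) replicates 2 and 3 remain in that fit, and replicate 3 had the lowest VD(−) mean over the members (7.21). The part of the lost arrays and that of the Y-linked signal cannot be told apart. In that fit 1 was called lower (Mrpl9), the median was 0.081 and 62 genes were above 0. With a covariate made of Y-linked signal less Xist, 8 were higher (4.27% of all genes), 2 lower (Mrpl9 and Mrps10), and the median was 0.10. The share of all genes lower was not counted in either fit, and in the main fit it was 2.95%.

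The large and the small subunit had nearly equal medians. In the large subunit, 45 of 48 genes were above 0, with a median log2 fold change of 0.16. At the nominal threshold 11 of them (22.9%) were higher, beside 4.05% of all genes. In the small subunit, 27 of 29 were above 0, with a median of 0.15, and 5 (17.2%) were higher. The medians differed by 0.0066, and by −0.019 to 0.016 when 1 array was left out. Without an array the count was 6 (VD(−) replicate 2) to 19 (VD(−) replicate 3) in the large subunit, with 7 without VD(+) replicate 1 and 7 without VD(+) replicate 3. In the small subunit it was 2 (VD(+) replicate 1) to 8 (VD(−) replicate 3), with 3 without VD(−) replicate 2, pool 1 or pool 2. Of all genes, 3.14% to 4.35% were higher in the fits that left out 1 array. Without the 3 VD(−) arrays with Y-linked signal each subunit had 1 gene higher at the threshold, beside 3.08% of all genes. The medians were then 0.098 in the large and 0.078 in the small subunit. Structures place Mrps18a and Mrps30 in the large subunit and leave Mrps36, a protein of the 2-oxoglutarate dehydrogenase complex, outside the ribosome. With this assignment the 50 large subunit genes and the 26 small subunit genes both had a median of 0.16.

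**Figure D2:**
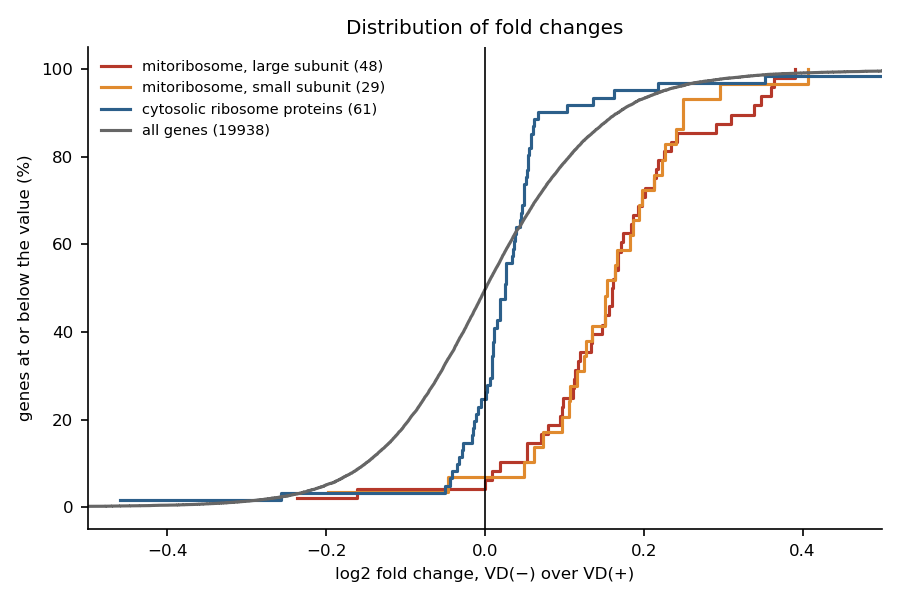
Cumulative share of genes (percent, vertical axis) at or below each log2 fold change, VD(−) over VD(+), for the large subunit (48 genes), the small subunit (29), cytosolic ribosome proteins (61) and all genes (19938). Both mitoribosomal curves run together with medians of 0.16 and 0.15, to the right of the cytosolic proteins (0.026) and of all genes (0.0010).

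Proteins with and without bacterial relatives had similar medians. The 48 genes with a bacterial relative had a median log2 fold change of 0.16 and 11 (22.9%) were higher at the nominal threshold. The 28 without had 0.17 and 5 (17.9%), and of all genes 4.05% were higher. The 9 small subunit genes without a bacterial relative included 0 at the nominal threshold, although their median was 0.19. All 5 small subunit genes at the threshold belong to the 17 with a bacterial relative, but without VD(−) replicate 3 there were 2 among the 9. Leaving out 1 array gave 6 (VD(+) replicate 1) to 18 (VD(−) replicate 3) calls with a bacterial relative. Without one it gave 2 (VD(−) replicate 2) to 9 (VD(−) replicate 3). Of all genes, 3.14% to 4.35% were higher in those fits. Without the 3 VD(−) arrays with Y-linked signal, 2 and 0 were called, beside 3.08% of all genes, and the medians were 0.078 and 0.11.

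The gene with the smallest nominal p was Mrps18b, 1 of 3 mammalian relatives of bacterial S18. Its log2 signal was 6.79, 6.94 and 7.07 in the single VD(−) samples and 7.03 and 6.94 in the VD(−) pools, against 6.32, 6.53 and 6.71 in the single VD(+) samples and 6.35 and 6.83 in the VD(+) pools. The groups overlapped only through VD(−) replicate 1 and VD(+) pool 2. The means were 6.96 ± 0.11 and 6.55 ± 0.22 (SD, n = 5 each). The log2 fold change was 0.41 (SE 0.11, 95% interval 0.17 to 0.64, or 1.33-fold), with a nominal p of 0.00325 and an adjusted p of 0.411 (limma, Benjamini-Hochberg). It stayed at the nominal threshold in each of the 10 fits that left out 1 array. The other relatives of S18 differed less, with log2 fold changes of 0.13 (SE 0.10) for Mrps18a and 0.12 (SE 0.16) for Mrps18c.

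Groups that did not overlap at all were seen for Mrpl50 and Mrpl17, both higher in VD(−) marrow, 2 of 77 members beside 1.09% of all genes higher and 0.632% lower. Mrpl50, a large subunit protein without a bacterial relative, had 7.49, 7.46, 7.44, 7.79 and 7.55 in VD(−) arrays, against 6.83, 7.30, 7.27, 7.25 and 7.28 in VD(+) arrays (replicates 1 to 3, then the pools). VD(+) replicate 1 lay far below the other VD(+) arrays, and all of these were still below every VD(−) array. The log2 fold change was 0.36 (SE 0.11, adjusted p 0.511 by limma). Mrpl17, a relative of bacterial L17 whose promoter holds the NRF1 motif shown, had 6.06, 6.14, 6.07, 6.07 and 6.11 in VD(−) arrays, against 5.86, 5.98, 5.98, 5.82 and 5.97 in VD(+) arrays. Its shift was small, 0.17 (SE 0.06), and the VD(−) arrays were tight, with an SD of 0.034, against 0.078 in VD(+) arrays. For both genes the exact permutation test, two-sided, gave p = 0.00794, the smallest that 5 arrays against 5 allow. Any gene whose groups do not overlap gets this value, so it adds nothing to the lack of overlap.

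The relatives of bacterial L15, L19 and L13 in the large subunit had log2 fold changes of 0.31 to 0.36. Mrpl15 had 6.36, 6.68, 6.53, 6.61 and 6.80 in VD(−) arrays, against 5.94, 6.55, 6.34, 6.27 and 6.15 in VD(+) arrays, a log2 fold change of 0.35 (SE 0.12, nominal p 0.0151 by limma). Mrpl19 had 6.20, 6.61, 6.15, 6.42 and 6.24 in VD(−) arrays, against 5.61, 6.20, 6.07, 6.13 and 5.79 in VD(+) arrays, and its log2 fold change was 0.36 (SE 0.13). Mrpl13 had 7.94, 8.10, 7.67, 7.95 and 7.76 in VD(−) arrays, against 7.29, 7.79, 7.51, 7.67 and 7.62 in VD(+) arrays, and its log2 fold change was 0.31 (SE 0.11). In all 3 genes VD(+) replicate 1 was the lowest array, the groups overlapped, and the nominal call was kept whichever array was left out. The same was true of Mrpl42, a protein without a bacterial relative, with a log2 fold change of 0.23 (SE 0.08) and 8.89 to 9.19 in VD(−) arrays, against 8.63 to 8.91 in VD(+) arrays.

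The remaining large subunit genes at the nominal threshold had log2 fold changes of 0.17 to 0.34. Mrpl47, a relative of bacterial L29, had 5.82 to 6.17 in VD(−) arrays, against 5.29 to 6.10 in VD(+) arrays, and a log2 fold change of 0.34 (SE 0.14). Mrpl51 (0.22, SE 0.09), Mrpl33 (0.20, SE 0.08), Mrpl58 (0.20, SE 0.08) and Mrpl39 (0.17, SE 0.07) completed the group. Mrpl58 is a peptidyl-tRNA hydrolase that is built into the large subunit and also frees stalled ribosomes. Of these 5 genes, Mrpl33 kept its call in 8 of the 10 fits that left out an array, Mrpl58 and Mrpl51 in 5, and Mrpl47 and Mrpl39 in 3.

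The other small subunit genes at the threshold were Mrps6, Mrps17, Mrps15 and Mrps28, relatives of bacterial S6, S17, S15 and S1. Mrps6 had 6.85, 6.83, 6.97, 7.14 and 7.18 in VD(−) arrays, against 6.48, 6.72, 6.79, 6.63 and 6.87 in VD(+) arrays. Both VD(−) pools lay above every other array, and VD(+) pool 2 lay within the VD(−) range. The log2 fold change was 0.30 (SE 0.10, nominal p 0.0127 by limma). It was 0.25 (SE 0.11) for Mrps28, 0.24 (SE 0.09) for Mrps17 and 0.23 (SE 0.09) for Mrps15. Mrps6 kept its call in all 10 fits without an array, Mrps17 in 7, and Mrps15 and Mrps28 in 3.

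**Figure D3:**
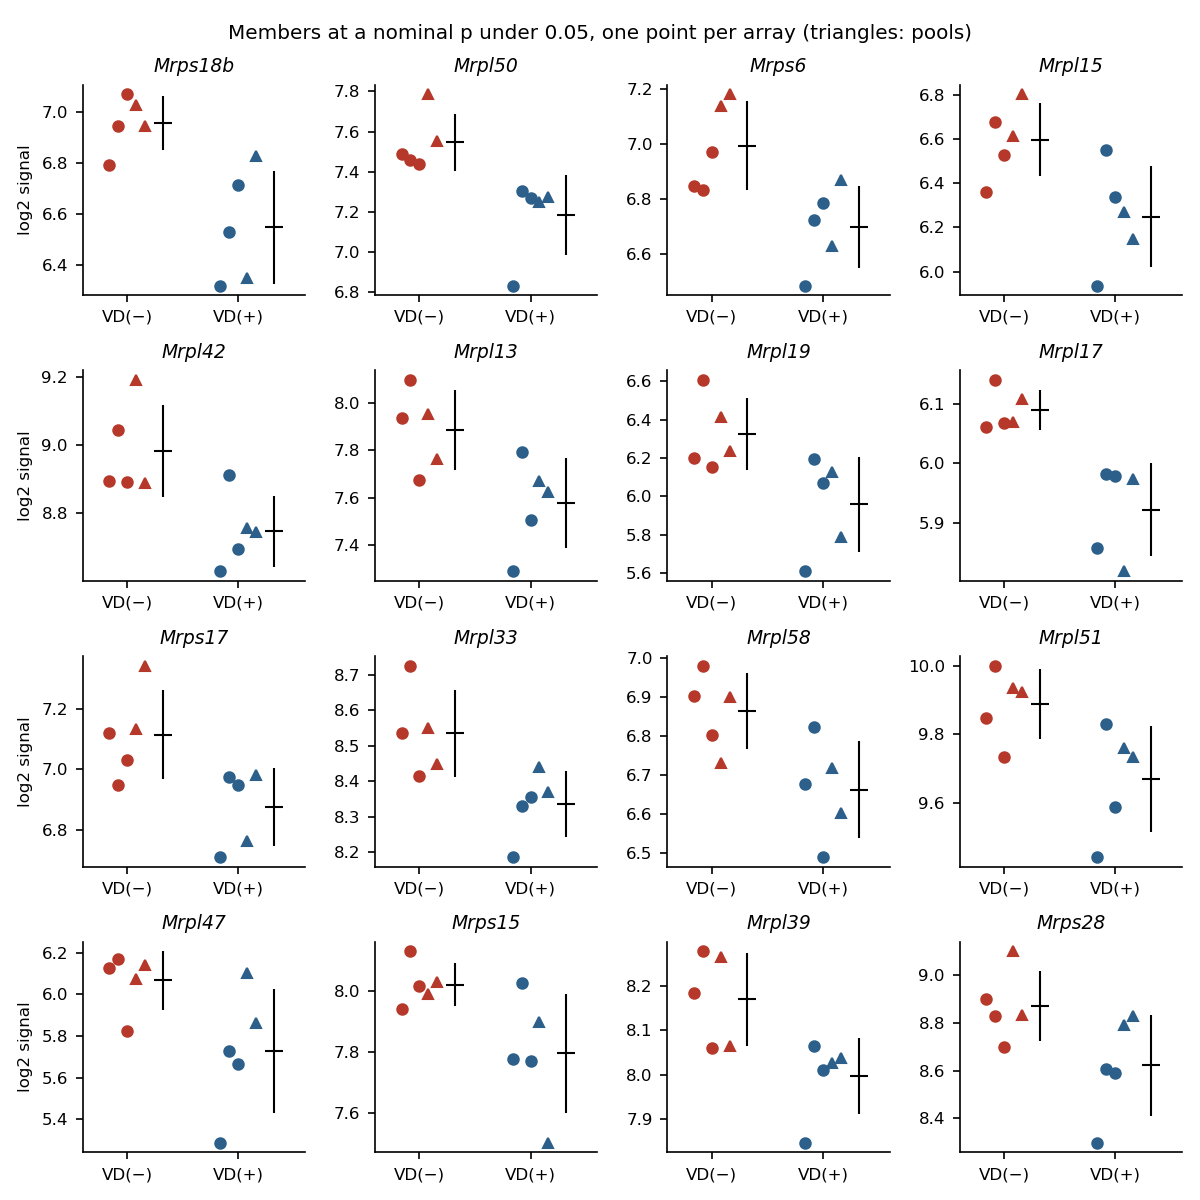
Log2 signal (vertical axes, a range of its own for each gene) of the 16 genes at a nominal p under 0.05, VD(−) left and VD(+) right, with circles for single samples, triangles for pools, and a bar for mean ± SD (n = 5 arrays each). Only Mrpl50 and Mrpl17 have groups that do not overlap.

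Combined with the ratio limits that the study's methods set for a call, 7 members were higher, beside 2.35% of all genes. This count was 4 without VD(+) replicate 1, 16 without VD(−) replicate 3 and 14 without VD(+) replicate 2. It was 2 without the 3 VD(−) arrays with Y-linked signal. The share of all genes past these limits was not counted in those fits. At a nominal p under 0.05 alone (limma), 3.30%, 4.35%, 3.91% and 3.08% of all genes were higher in them, in the same order.

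A large difference in means did not suffice where arrays varied. Mrpl36, a relative of bacterial L36, had 7.63, 8.18, 7.73, 7.93 and 7.68 in VD(−) arrays, against 6.76, 7.74, 7.42, 7.62 and 7.65 in VD(+) arrays. Its log2 fold change of 0.39 (SE 0.18) was the largest of the large subunit, and its nominal p was 0.0581 (limma). VD(+) replicate 1 was far below the other arrays, VD(−) replicate 2 was the highest, and the groups overlapped. Mrps22, a small subunit protein without a bacterial relative, had a log2 fold change of 0.25 (SE 0.14), with VD(+) replicate 1 at 6.51 and the other VD(+) arrays at 7.02 to 7.17.

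Lower means in VD(−) marrow were found for 5 genes, 0 of them at the nominal threshold. Mrpl9, a relative of bacterial L9, had 6.58, 6.32, 6.06, 6.63 and 6.46 in VD(−) arrays, against 6.48, 6.54, 6.87, 6.71 and 6.63 in VD(+) arrays. The low VD(−) value was replicate 3 and the high VD(+) value replicate 3, and the groups overlapped. The log2 fold change was −0.24 (SE 0.12, 95% interval −0.49 to 0.02, nominal p 0.0683 by limma), and without the 3 VD(−) arrays with Y-linked signal it was −0.45 at a nominal p of 0.00943. Mrps10, a relative of bacterial S10, had 6.31, 6.09, 5.99, 6.20 and 5.91 in VD(−) arrays, against 6.25, 6.39, 6.18, 6.51 and 6.15 in VD(+) arrays, a log2 fold change of −0.20 (SE 0.10). Mrpl22, a relative of bacterial L22, which lines the tunnel for the growing chain, had 6.36, 6.21, 5.21, 6.29 and 5.81 in VD(−) arrays, against 5.88, 6.02, 6.15, 6.29 and 6.36 in VD(+) arrays. Its log2 fold change of −0.16 (SE 0.21) rested on VD(−) replicate 3 and was 0.03 without it. Mrps25 (−0.05, SE 0.12) and Mrpl49 (−0.00033, SE 0.066) were the others, and the interval of Mrpl49 reached −0.15 and 0.15.

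The brightest and the dimmest probe sets of each subunit were not at the threshold, except Mrpl51. Mrpl51 averaged 9.89 in VD(−) and 9.67 in VD(+) arrays, and Mrps18c 9.97 and 9.86. At the dim end, Mrpl38 averaged 5.63 in VD(−) and 5.52 in VD(+) arrays. Mrps27, which carries pentatricopeptide repeats, averaged 4.67 in VD(−) and 4.48 in VD(+) arrays, near the array medians. Levels of different probe sets are not set against each other. Among the 8 genes with several probe sets, all 8 had the same sign in the other probe set, from 0.02 for Mrpl27 to 0.27 for Mrpl51. Of the genes at the threshold, Mrpl51 and Mrpl47 had such a probe set, and it was not at the threshold in either. For Mrpl51 it was dimmer (mean 5.94), with SE 0.17 and a nominal p of 0.143 (limma). For Mrpl47 its log2 fold change was 0.18, with a nominal p of 0.0904 (limma).

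Taken array by array, most members deviated in the same direction in VD(+) replicate 1 and in all VD(−) arrays but replicate 3. In the other arrays the members were more mixed. The mean log2 signal over the 77 genes was 7.35, 7.38 and 7.21 in VD(−) replicates 1 to 3 and 7.45 and 7.36 in the VD(−) pools, against 7.01, 7.27, 7.22, 7.23 and 7.26 in VD(+) arrays. In VD(−) marrow, 4 of 5 arrays were above all VD(+) arrays, whereas VD(−) replicate 3 was below all VD(+) arrays but replicate 1. In VD(−) arrays, 61, 61, 28, 68 and 60 of the 77 genes were above their own mean over 10 arrays, against 5, 38, 23, 30 and 34 in VD(+) arrays. VD(+) replicate 1 held the lowest value of 42 genes, and VD(−) pool 1 the highest value of 31. Without VD(+) replicate 1 the median log2 fold change was 0.12, and without VD(−) replicate 3 it was 0.20.

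**Figure D4:**
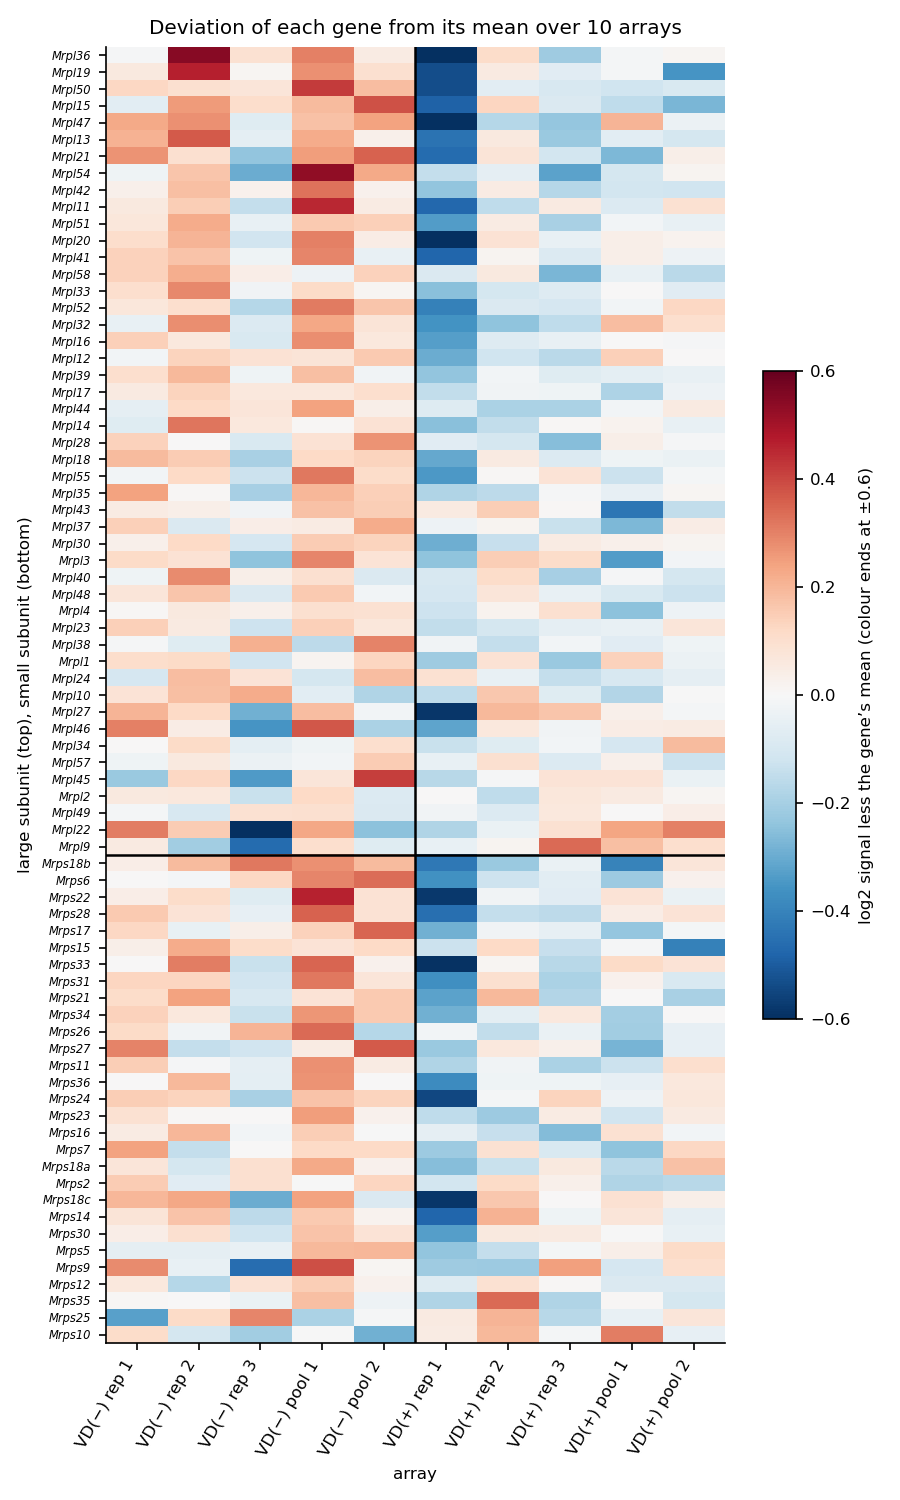
Deviation of the log2 signal of each gene (rows, large subunit above the horizontal line and small subunit below, ordered by fold change) from its own mean over 10 arrays (columns, VD(−) left of the vertical line and VD(+) right), with colours ending at ±0.6. The column of VD(+) replicate 1 is low for most genes, with 42 of them lowest there, and VD(−) pool 1 is high.

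The subunits deviated in the same direction in 9 of 10 arrays. Large subunit genes lay on average 0.07, 0.14, −0.08, 0.17 and 0.09 from their own means in VD(−) arrays, against −0.26, −0.01, −0.06, −0.04 and −0.02 in VD(+) arrays. Small subunit genes lay 0.09, 0.05, −0.03, 0.20 and 0.08 from theirs in VD(−) arrays, against −0.27, 0.01, −0.05, −0.06 and −0.01 in VD(+) arrays. In VD(+) replicate 2 the signs were opposite, both near 0. The widest gap was in VD(−) replicate 2, where 44 of 48 large subunit genes and 17 of 29 small subunit genes were above their own means.

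**Figure D5:**
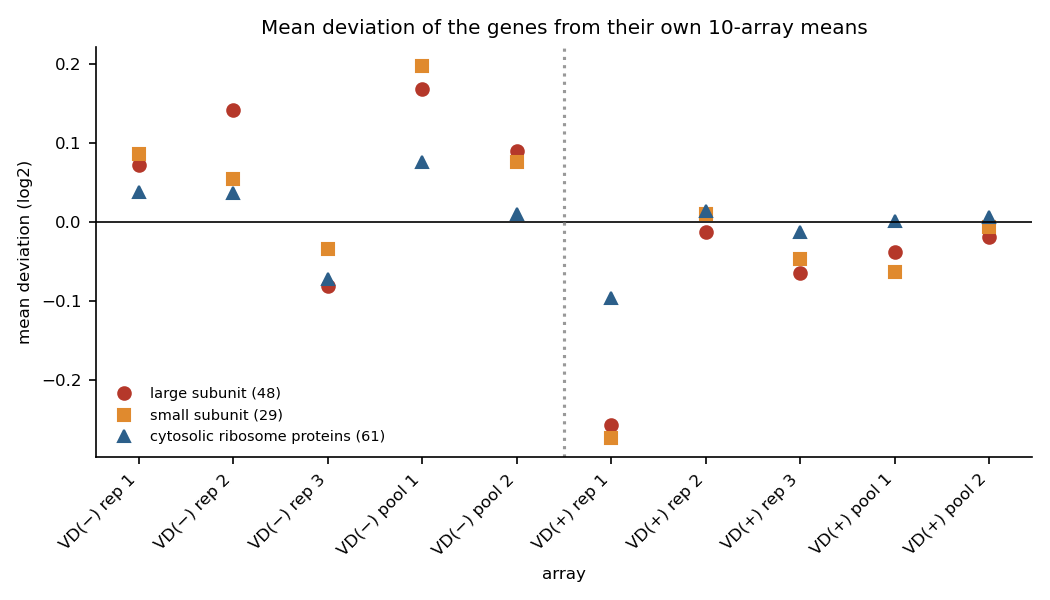
Mean deviation (log2, vertical axis) of the large subunit (48 genes), the small subunit (29) and cytosolic ribosome proteins (61) from their own 10-array means in each array, VD(−) left and VD(+) right of the dotted line. VD(+) replicate 1 is lowest for all 3 groups, at −0.26, −0.27 and −0.10.

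Single samples and pools gave like medians when taken alone, 0.16 in each, with 67 genes above 0 in the single samples and 69 in the pools. At the nominal threshold 4 genes were higher in the single samples (Mrps18b, Mrpl47, Mrps28 and Mrpl12), beside 1.84% of all genes, and 6 in the pools (Mrpl50, Mrpl15, Mrps6, Mrpl21, Mrpl54 and Mrpl43), beside 1.90%. The difference between singles and pools was tested for each gene, and 0 passed the adjusted threshold (limma, Benjamini-Hochberg). Mrpl43 alone had a nominal p under 0.05 for it (0.0113), with log2 fold changes of −0.05 in single samples and 0.45 in pools.

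Markers of other cells also differed between the groups. All 8 macrophage markers were above 0, with a median log2 fold change of 0.25. At the nominal threshold 3 were higher (Cd68, Vsig4 and Timd4), beside 4.05% of all genes. The mean log2 signal of the 8 markers was 7.55 to 7.92 in VD(−) and 7.04 to 7.60 in VD(+) arrays. It was lowest in VD(+) replicate 1 and highest in VD(−) pool 1, as for the mitoribosomal genes. This was not particular to macrophage markers. The means of the stromal markers had the same lowest and highest arrays. So did those of the mitoribosome assembly factors, the mitochondrial translation factors and the genes for mitochondrial DNA described below, but not the aminoacyl-tRNA synthetases. All 6 stromal markers were above 0 as well (median 0.22; Lepr 0.33, Cxcl12 0.24, Sparc 0.39), with means of 7.17 to 7.82 in VD(−) and 7.01 to 7.44 in VD(+) arrays. All 6 B cell markers were below 0 (median −0.32), and Fcer2a fell by 0.58 (adjusted p 0.0305, limma), with log2 fold changes of −0.45 for Ms4a1 and −0.35 for Cd22. The 6 cycling cell markers had a median of 0.03, with means of 9.72 to 9.87 in VD(−) and 9.71 to 9.82 in VD(+) arrays. The part of these cells in the values of the mitoribosomal genes was not tested.

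The proteins of the cytosolic ribosome, taken by gene symbol, had a smaller median fold change and a wider range. This set also takes in genes named as like a ribosomal protein, such as Rps27l and Rps4l. Its dimmest probe set had a mean log2 signal of 2.99, against 4.58 for the dimmest member, and its brightest 13.0, against 9.92 for the brightest member. The sets thus differ in their range of signal, and the part of this in the medians was not tested. Of 61 genes, 46 had a log2 fold change above 0, the median was 0.026 and the range −0.46 to 0.91. At the nominal threshold 2 were higher, Rps3a1 (0.91, SE 0.12) and Rps27l (0.35, SE 0.13), and 1 was lower, Rps4l (−0.46, SE 0.14). Of all genes, 4.05% were higher and 2.95% lower. Rps3a1 rose past the adjusted threshold (adjusted p 0.0248, limma), which no member did. They deviated by 0.04, 0.04, −0.07, 0.08 and 0.01 in VD(−) arrays, against −0.10, 0.01, −0.01, 0.00 and 0.01 in VD(+) arrays. VD(−) replicate 3 and VD(+) replicate 1 were the lowest arrays of their groups here too.

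Mitoribosomal proteins with other symbols were measured for 4 of 5 genes. Gadd45gip1, which codes for a large subunit protein also known as CRIF1, had 6.41, 6.37, 6.63, 6.53 and 6.54 in VD(−) arrays, against 6.87, 6.67, 6.91, 6.92 and 6.93 in VD(+) arrays. Its groups did not overlap and ran against the members, with a log2 fold change of −0.36 (SE 0.08, nominal p 0.000744, adjusted p 0.217 by limma). The small subunit protein Ptcd3 had a log2 fold change of 0.21 (SE 0.09), Chchd1 0.14 and Dap3 0.07. Mrpl53 shares its probe set with another gene and is not among the 77.

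Genes that build and run the mitoribosome had smaller median fold changes. Of 27 assembly factors and rRNA modifiers, 22 were above 0 with a median of 0.064. At the nominal threshold 3 were higher (11.1%, beside 4.05% of all genes). Among these, Fastkd2, an RNA-binding protein of mitochondrial RNA granules, had 6.18 to 6.48 in VD(−) and 4.95 to 6.24 in VD(+) arrays, with VD(+) replicate 1 again lowest, and a log2 fold change of 0.54 (SE 0.21). The GTPases Noa1 (0.24, SE 0.11) and Eral1 (0.25, SE 0.11) were the others.

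Of 13 mitochondrial translation factors, 10 were above 0 with a median of 0.071 and 0 at the nominal threshold, beside 4.05% of all genes. The smallest p were those of the elongation factor family member Gfm2 (0.13, SE 0.07), the release factor family member Mtrf1l (−0.15, SE 0.08) and the inner membrane insertase Oxa1l (0.12, SE 0.07). Of 19 aminoacyl-tRNA synthetases, 14 were above 0 with a median of 0.059. Beside 4.05% of all genes, 1 of the 19 was higher at the nominal threshold, Yars2, which charges the tyrosine tRNA. It had 6.05, 6.43, 6.34, 6.40 and 6.30 in VD(−) arrays, against 5.60, 6.02, 5.94, 6.03 and 6.14 in VD(+) arrays, a log2 fold change of 0.36 (SE 0.11). Only VD(−) replicate 1 lay within the VD(+) range. Next by p were Tars2 (0.20, SE 0.10) and Gatb (0.18, SE 0.10), neither at the threshold.

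Of 15 genes for upkeep and transcription of mitochondrial DNA, 14 were above 0 with a median of 0.065. The RNA helicase Supv3l1 (0.30, SE 0.09) and the topoisomerase Top1mt (0.35) were higher at the nominal threshold, 13.3% of the list beside 4.05% of all genes. The RNA-binding protein Slirp (0.34, SE 0.15), the transcription factor Tfam (0.15) and the polymerase Polrmt (0.03) were not at it.

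Promoter windows of 300 bases (250 before to 50 after the start) were listed for 68 of the 77 genes. The NRF1 motif was found in 13 of 68 genes (19.1%), against 7.17% of 17491 protein-coding genes, and the ETS motif in 25 (36.8%), against 12.9%. The YY1 motif AAGATGGC was found in 12 (17.6%), against 3.57%, and the E-box CACGTG in 5 (7.35%), against 8.91%. Both strands were searched, and a match is a run of letters and not a measured binding site. The median log2 fold change was 0.17 in the 13 genes with the NRF1 motif and 0.15 in the 55 without it, and 0.16 in the 25 genes with the ETS motif and 0.16 in the 43 without. Genes with and without these motifs thus had similar medians. Of the 16 genes at the nominal threshold, 12 had a window, of which 2 held the NRF1 motif (Mrpl17 and Mrpl39) and 5 the ETS motif.

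In the same assembly the 77 genes lie on 17 chromosomes, with at most 11 on 1 of them. Mrpl46 and Mrps11 are the only pair of next neighbours, start to start and 41 bases apart on chromosome 7. Their log2 fold changes were 0.07 (SE 0.15) and 0.17 (SE 0.09).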

How the data were processed

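Total RNA of 10 marrow samples was hybridised to a mouse gene array. The authors deposited log2 values normalised by RMA in Partek Genomics Suite, and these deposited log2 values were used as given. A miRNA array is named in the methods, but the probe annotation is of a whole-transcript gene array, and the array's genome build is not given in the sources used here. Of all probe sets, 21789 list 1 gene, 1621 several and 12146 none. All 77 symbols matched the current RefSeq table.

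VD(−) was compared with VD(+) with limma 3.58.1 (R 4.3.3), lmFit and eBayes, two-sided, without covariates and with Benjamini-Hochberg adjustment over all probe sets. Single genes were also compared by an exact permutation test over 252 splits. The code was tested on simulated data. Genes were named if at a nominal p under 0.05 or without overlap, if among the 3 most positive or 3 most negative of a subunit, if brightest or dimmest, or if a relative of S18, Mrps30 or Mrps36. In the other mitochondrial, cytosolic ribosome, B cell, macrophage and stromal lists the 3 smallest nominal p were named, no gene was singled out in marker lists without a call, and further genes (Dap3, Tfam, Polrmt, Mrps11, Mrpl27, Mrpl43, Mrpl46, Mrpl53, and members called under an alternative alone) were chosen after their values were seen. The members and lists were chosen with earlier results of these data known. Alternatives covered the test, scaling, dim probe sets, array weights, pools, Y-linked signal, several probe sets, the replicate block and each array left out.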

Additional observations from a re-analysis of the deposited data

Results flagged for a closer look

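Within groups of 5 arrays, 66 sets of values were searched for a highest or lowest array that stood far from the rest, and 11 were found, where chance gives about 1 in 20. VD(+) replicate 1 was the low array in 9 of the 11. It stood at 6.83 for Mrpl50 (other VD(+) arrays 7.25 to 7.30), 7.85 for Mrpl39 (8.01 to 8.06), 6.51 for Mrps22 (7.02 to 7.17), 9.33 for Mrps18c (9.92 to 10.08), 6.04 for Mrps30 (6.33 to 6.43) and 6.55 for Mrps36 (6.88 to 6.99). The mean over all members was 7.01 in that array (7.22 to 7.27 in the others), that over the large subunit 7.08 (7.28 to 7.33), and that over the small subunit 6.89 (7.10 to 7.17). These 9 share 1 array and are not independent of each other.

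In VD(−) arrays, Mrpl47 was at 5.82 in replicate 3 (others 6.07 to 6.17) and Mrps35 at 6.69 in pool 1 (others 6.46 to 6.51). Mrps35, a small subunit protein without a bacterial relative, had a log2 fold change of 0.05 (SE 0.10).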

How the results depend on the processing

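No member reached an adjusted p under 0.05 under any alternative run (limma, Benjamini-Hochberg). The median over all members, 0.16, was 0.081 without the 3 VD(−) arrays with Y-linked signal and 0.12 to 0.20 leaving out 1 array. The count higher at a nominal p under 0.05, 16, was 4 in single samples alone, 6 in pools alone and 8 with a covariate of Y-linked signal less Xist. It was 2 without the 3 VD(−) arrays with Y-linked signal, and 9 to 27 leaving out 1 array. In the same order, 1.84%, 1.90%, 4.27%, 3.08% and 3.14% to 4.35% of all genes were higher. The count lower, 0, was 1 with cyclic loess (Mrpl9), 2 with the covariate, 1 without the 3 arrays, and 0 to 2 leaving out 1 array. The share of all genes lower was counted in the main fit alone (2.95%), so these counts have no background of their own. The count past the methods' ratio limits, 7, was 4 in single samples alone, 2 without the 3 arrays and 4 to 16 leaving out 1 array. The share of all genes past these limits was not counted in those fits. Smaller designs hold fewer samples; for the other changes the cause was not tested.

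Same-numbered samples showed little shared deviation (correlations −0.063 to 0.127, and 1 of 5 VD(−) arrays was closest to its own number). No pairing by number was thus seen. With a replicate block, 15 members were higher and 1 lower (Mrps10), beside 3.51% of all genes higher. The share of all genes lower was not counted in that fit.

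Of the 30 members named by a rule, the sign turned under some alternative for 6, all without a call. Members named after their values were seen, such as Mrpl43 (−0.05 in single samples alone), were not counted here. Mrps25 was 0.19 with the covariate, 0.18 without the 3 arrays and −0.13 to 0.029 leaving out 1 array (highest without VD(−) replicate 1). Mrps18c was −0.0097 with the covariate and −0.016 (without VD(+) replicate 1) to 0.20 leaving out 1 array. Mrps35 was −0.0052 with the covariate and −0.0024 in single samples alone, where Mrpl49 was 0.0088. Mrpl49 was −0.025 to 0.023 leaving out 1 array, Mrps27 was −0.038 without the 3 arrays, and Mrpl22 was −0.26 to 0.031 leaving out 1 array (highest without VD(−) replicate 3). For the same 30 members, 559 alternative values kept direction and side, 101 lost the nominal threshold, 13 gained it and 16 turned.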
